A study of Mus musculus with 2 samples.

Results

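The cells described here are endothelial cells, which line blood vessels, from the ventral parafacial region of the mouse brainstem. They were chosen by their own RNA, measured by single-cell RNA sequencing in counts of unique molecular identifiers (UMIs), each of which stands for a captured RNA molecule. Barcodes were kept with at least 800 genes, at most 50 UMIs of hemoglobin genes and at most 20% of UMIs from mitochondrial genes. Among these, a member had at least 6 UMIs of *Cldn5*, *Flt1*, *Ly6c1* and *Pecam1* together. It also had at most 2 UMIs of the pericyte genes *Pdgfrb*, *Vtn* and *Kcnj8*, at most 2 of the microglial genes *C1qa* and *C1qb*, at most 1 of the oligodendrocyte genes *Mog* and *Mag*, and 0 of the neuronal genes *Slc32a1* and *Slc17a6*. The rule found 534 endothelial cells among 12395 filtered cells and 14008 barcodes in all.

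Both libraries were made from wild-type C57BL6/J mice that were 10 days old, with 8 mice pooled in each, 4 male and 4 female, on the 10x Chromium platform with version 2 chemistry. The library of batch 1 came from untreated mice, and the library of batch 2 came from mice given 0.2 mg per day of 4OH-tamoxifen, the active form of the drug used to switch on inducible Cre, for 3 days. Each condition had 1 library and each batch 1 condition, so treatment, batch and depth cannot be told apart, and no test between the conditions could be made. The question put to the libraries was what these vessel cells express and where the 2 libraries differ in them.

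Endothelial cells of the brain form the blood-brain barrier. Tight junctions seal the gaps between them, vesicle traffic across them is kept low, and transporters carry glucose, amino acids, lactate and iron inward while efflux pumps return lipid-soluble compounds to the blood. Wnt ligands from neural tissue, acting through beta-catenin, induce these properties, pericytes on the outer wall help to keep them, and endothelial genes grade along the vessel from artery through capillary to vein. The ventral parafacial region holds neurons that drive breathing in response to carbon dioxide and protons.

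The untreated library held 3767 barcodes and 18496942 UMIs, and the 4OH-tamoxifen library 10241 barcodes and 34704167 UMIs. After the filters, 221 of 3345 untreated cells were endothelial, a share of 6.61% (95% exact binomial interval 5.79 to 7.50), and 313 of 9050 4OH-tamoxifen cells, a share of 3.46% (3.09 to 3.86). The share was higher in the untreated library, with a ratio of 1.91 (1.60 to 2.28). Pericytes, at 2.21% and 0.840% of filtered cells, and microglia, at 10.0% and 6.91%, lay the same way. The endothelial cells held 1003833 and 1015099 UMIs in the 2 libraries. Their median depth was 3613 UMIs and 1684 genes in untreated and 2657 UMIs and 1372 genes in 4OH-tamoxifen cells, and the median share of mitochondrial UMIs was 6.22% and 6.14%. Depth ran from 1820 to 22531 UMIs in untreated and from 1350 to 29524 in 4OH-tamoxifen endothelial cells. The deeper cells were thus in the untreated library, and shares of cells with a UMI are therefore also given after each cell was thinned to 1500 UMIs, at which the median was 892 and 884 genes per cell. Shallower cells, 14 endothelial cells and 5 microglia of the 4OH-tamoxifen library and 0 of the other, were left out of the thinned shares, which thus rest on 221 and 299 endothelial cells. Of all barcodes, 40 were found in both libraries, as were 33 of the filtered cells, and no endothelial barcode of either library was an endothelial barcode of the other.

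Levels are given as UMIs of a gene summed over the endothelial cells of a library, per 1000000 UMIs of those cells (CPM), with exact Poisson 95% intervals in parentheses. Ratios are CPM in untreated over CPM among 4OH-tamoxifen cells, with exact conditional intervals. The intervals reflect the error of counting molecules and leave out how mice, pools or batches vary. UMIs tag transcript ends, so an order of levels between genes is an order of UMIs. For a gene with 0 UMIs the limit used is 3 counts, or 2.99 CPM among untreated and 2.96 CPM among 4OH-tamoxifen endothelial cells, where the exact Poisson interval, as for *Marveld3*, reaches 3.67 and 3.63 CPM. In cells, 0 UMIs allow a share with a UMI of up to 1.36% and 0.958%, which limits no share of cells that express the gene.

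The genes of the rule describe the choice and are no finding. *Cldn5*, the main claudin of the barrier, had 6451 UMIs in untreated and 3931 in 4OH-tamoxifen members and was seen in 100% and 99.7% of them. *Flt1*, a decoy and signaling receptor for vascular endothelial growth factor (VEGF), was seen in 92.3% and 92.7%, *Ly6c1* in 88.7% and 86.9% and *Pecam1*, an adhesion molecule of endothelial borders, in 71.0% and 61.3%. Since *Ly6c1* and *Ly6c2* are near copies, the split of UMIs between them is uncertain. The sum over these genes had a median of 37 UMIs in untreated and 19 in 4OH-tamoxifen members and ran from 6 to 170 in both libraries. Before the other limits, 312 and 511 cells reached 6 UMIs. Of these, 52 and 135 exceeded the pericyte limit, 9 and 12 the microglial limit, 39 and 64 the oligodendrocyte limit and 3 and 18 the neuronal limit.

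Few cells lay close to the threshold. Just inside it, at 6 or 7 UMIs, were 4 untreated and 26 4OH-tamoxifen cells with median depths of 1999 and 1771 UMIs, and just outside, at 4 or 5 UMIs, 7 and 19 cells that met the other limits, with medians of 2483 and 1832. The VEGF receptor gene *Kdr*, which the rule did not use, was at 741 CPM (272 to 1612) among untreated and 667 CPM (462 to 932) among 4OH-tamoxifen cells just inside, and at 162 CPM (44.2 to 415) and 663 CPM (437 to 965) just outside. Members with 8 or more UMIs had 900.8 and 873 CPM, and cells with 0 to 3 UMIs 4.78 and 3.72 CPM. In the 4OH-tamoxifen library the cells on either side of the threshold thus had overlapping *Kdr* levels, both far above the cells with 0 to 3 UMIs. *Itm2a*, a membrane protein gene abundant in brain endothelium, was graded, with 2098 and 1472 CPM just inside, 567 and 835 CPM just outside and 3034 and 1851 CPM at 8 or more UMIs.

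A list of 22 genes known from endothelium throughout the body, none of them used by the rule, described the cells from outside the choice. *Kdr*, the main signaling receptor for VEGF, was at 899.6 (842 to 960.2) CPM among untreated and 863 (807 to 922) CPM among 4OH-tamoxifen endothelial cells, against 62.8 and 39.0 CPM in all other filtered cells. All other cells, here and below, are the filtered cells that were not members. They include cells with at least 6 UMIs of the rule genes that failed another limit, so they are not free of endothelial RNA. In cells with 0 to 3 such UMIs *Kdr* was at 4.78 and 3.72 CPM. It was seen in 88.7% and 81.8% of endothelial cells and, after thinning, in 65.6% and 68.2%. In microglia, which are not known to make *Kdr* and serve as the background, the shares were 1.79% and 1.28% at median depths of 4006 and 2438 UMIs, and 0.597% and 0.968% after thinning. *Cdh5*, the cadherin of endothelial adherens junctions, was at 317 (283 to 354) and 253 (223 to 286) CPM, the angiopoietin receptor gene *Tek* at 215 (187 to 246) and 218 (190.0 to 248) CPM, and its orphan partner *Tie1* at 296 (263 to 332) and 232 (203 to 263) CPM. Of the transcription factor genes of the lineage, *Fli1* was at 243 and 271 CPM, *Erg* at 93.6 and 120.2 CPM, *Sox18* at 79.7 and 76.8 CPM and *Sox7* at 65.7 and 53.2 CPM. *Tal1*, a regulator of early blood and vessel precursors, had the fewest UMIs, 17 and 18.

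All 22 of these genes had UMIs in both libraries. A gene was tested for its endothelial level where at least 10% of endothelial cells of each library had it, and called where its CPM plus 10 was at least 4 times the CPM plus 10 of all other filtered cells in both libraries. Wherever a multiple of the level of other cells is given below, it is this ratio with 10 CPM added on both sides, and the shares over all genes in this paragraph hold for each list. Of the tested genes of this list 21 of 21 were called, against 297 of 4238 genes (7.01%) over all genes, and their median ratio, taking the lower library for each gene, was 11.4 against 1.03. Since the cells were chosen by expression, this is a description. For the libraries, a gene was compared where its larger CPM was 50 or more and its UMIs over both libraries 20 or more, which held for 3466 genes, so a gene could enter by its level in a single library. Their median log2 ratio was 0.03. The interval of the ratio lay above 1, meaning higher in untreated cells, for 544 of them (15.7%) and below 1 for 406 (11.7%), and a ratio of at least 2 was reached by 19 (0.548%) toward untreated and 37 (1.07%) toward 4OH-tamoxifen cells. In the pan-endothelial list, 10 of 21 compared genes had an interval above 1 and 0 below, 0 reached 2-fold in either direction, and the median log2 ratio was 0.27. The sum over the list was 10214 CPM among untreated and 8506 CPM among 4OH-tamoxifen cells. *Emcn*, an endothelial sialomucin, was at 348 (312 to 386) and 224 (195 to 255) CPM, a ratio of 1.55 (1.31 to 1.85), and *Icam2*, an adhesion ligand for leukocytes, at 274 (243 to 308) and 164 (139.6 to 190.4) CPM, a ratio of 1.68 (1.38 to 2.04). *Erg* lay the other way, at a ratio of 0.779 (0.589 to 1.03) with an interval that covered 1.

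**Figure D1:**
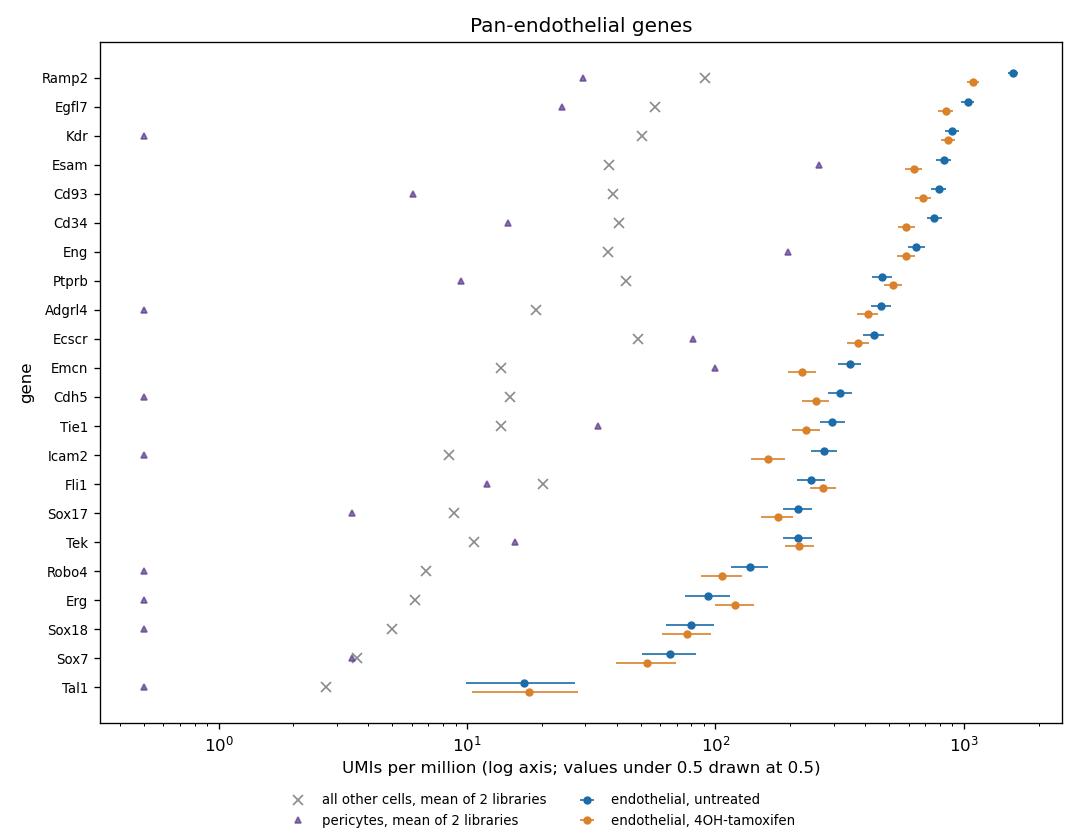
CPM (log axis) of pan-endothelial genes in the endothelial cells of each library, with exact Poisson 95% intervals, and, as means of the libraries, in all other filtered cells and in pericytes. *Kdr* stood at 899.6 and 863 CPM in endothelial cells and at 62.8 and 39.0 CPM in the others, and each gene of the list was higher in endothelial cells of both libraries.

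Markers of 11 other cell types were read in the same cells, and their part in the results below was not tested. Oligodendrocyte markers were the most abundant, with 6 of 6 found and a sum of 9404 CPM among untreated and 11128 CPM among 4OH-tamoxifen endothelial cells, mostly *Mbp*, the gene of myelin basic protein, at 7765 and 8961 CPM. The same markers summed to 11237 and 15860 CPM in microglia and 38648 and 40758 CPM in all other cells, so endothelial cells lay below the microglial level. Astrocyte markers, 6 of 6, summed to 1182 CPM, led by *Aldoc*, and 1716 CPM, led by *Slc1a2*, beside 1101 and 2089 CPM in microglia. Neuron markers, of which 4 of 6 had UMIs, summed to 79.7 and 197 CPM, led by *Tubb3*, beside 89.1 and 209 CPM in microglia, and *Slc32a1* and *Slc17a6* were at 0 by the rule. Both sums were higher in the 4OH-tamoxifen library, in endothelial cells and in microglia.

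The sums of vessel wall, blood and immune cells lay below those of oligodendrocytes and astrocytes. The rule limited pericyte, microglial and oligodendrocyte genes but no astrocyte gene, so this order follows partly from the choice. Pericyte markers, 8 of 8, summed to 775 CPM among untreated and 779 CPM among 4OH-tamoxifen endothelial cells, of which *Rgs5* alone made up 673 and 595 CPM. These sums were above the 46.0 and 65.9 CPM of microglia and the 696 and 340 CPM of all other cells. Smooth muscle markers were found for 2 of 5 and 4 of 5 genes with 22.9 and 54.2 CPM, mostly *Mylk*, and the defining genes *Tagln*, *Myh11* and *Cnn1* were at 0 in untreated cells and *Cnn1* in 4OH-tamoxifen cells. Microglial markers, 6 of 7 and 7 of 7, gave 112 and 111 CPM, led by *C1qa* in 4OH-tamoxifen cells, with *Tmem119* at 0 in untreated cells. Border macrophage markers gave 2.99 and 21.7 CPM from 1 of 4 and 2 of 4 genes, led by *Pf4*, with *Mrc1* and *Cd163* at 0 in both libraries and *Lyve1* at 0 in untreated cells. Hemoglobin and other erythrocyte genes, 4 of 5, gave 223 and 197 CPM, led by *Hbb-bs*, with *Alas2* at 0. Lymphatic markers, 3 of 4 and 4 of 4, gave 43.8 and 21.7 CPM, led by *Ccl21a* and *Pdpn*, and *Lyve1* was at 0 in untreated cells. Precursors of oligodendrocytes were represented by 4 of 4 markers with 295 and 313 CPM, led by *Olig1*, and fibroblasts by 5 of 5 with 45.8 and 59.1 CPM, led by *Pdgfra*.

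Among genes outside the rule, the 25 with the largest level in endothelial over all other cells, by the lower of the libraries, described what sets these cells apart. *Pglyrp1* led the list. It encodes a secreted peptidoglycan recognition protein and is known from brain endothelium, and it was at 2629 (2529.6 to 2731) CPM among untreated and 1794 (1712 to 1878) CPM among 4OH-tamoxifen endothelial cells against 114 and 58.8 CPM in all others, a lower ratio of 21.3. *Ctla2a*, which encodes a protein like the propeptide of cathepsin L, was at 1697 and 1465 CPM against 79.1 and 48.2 CPM. *Itm2a* was at 3026 and 1832 CPM against 166 and 87.3 CPM. By the lower library these genes stood 17.2 to 21.3 times higher in endothelial cells. Behind them came transporters, *Slco1a4* for organic anions with a ratio of 16.6 and *Slc38a5* for neutral amino acids with 14.4, the surface protein gene *Ly6a* with 15.7, and *Car4*, a carbonic anhydrase held on the outer membrane of brain capillaries, with 15.1. Receptors and adhesion genes followed, among them *Adgrl4* at 14.2, *Cd93* at 13.9, *Esam* at 13.7, *Kdr* at 12.5 and *Ramp2*, the partner of the adrenomedullin receptor, at 12.5. The 25th was *Slc22a8*, an organic anion transporter, at 11.6.

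The leading genes were spread over the genome, and all 72 named genes were found by Ensembl identifier in the GENCODE M21 annotation of GRCm38. *Pglyrp1* (ENSMUSG00000030413) lies at chr7:18871331-18890459 on the plus strand, *Ctla2a* (ENSMUSG00000044258) at chr13:60934155-60936625 on the minus strand, and *Itm2a* (ENSMUSG00000031239) at chrX:107397099-107403376 on the minus strand. *Car4* (ENSMUSG00000000805) lies at chr11:84957786-84966044 and *Kdr* (ENSMUSG00000062960) at chr5:75932827-75978458, on the plus and minus strands. The rule gene *Ly6c1* and the leading gene *Ly6a* are neighbors on chromosome 15, at chr15:75044018-75048830 and chr15:74994877-74998031, as are the transporter genes *Slco1a4* and *Slco1c1* on chromosome 6, at chr6:141805440-141856199 and chr6:141524368-141570177.

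ETS factors, among them the products of *Erg* and *Fli1*, bind DNA with the core letters GGAA and are central regulators of endothelial genes, and so the promoters of the 25 leading genes were searched for CAGGAAG and CCGGAAG on both strands, counting no overlap. RefSeq promoters of build GRCm38.p6, 300 bases long from 250 bases before to 50 after a start, were found for 17 of the 25 genes. Those without an entry were *Ly6a*, *AU021092*, *Cd93*, *Esam*, *Vwa1*, *Ramp2*, *Foxq1* and *Bsg*. At least 1 promoter with CAGGAAG was found for 6 of the 17 genes (35.3%) and with CCGGAAG for 2 (11.8%), so 8 of 17 (47.1%) had either. Over all 27025 genes of the table the shares were 14.8%, 9.93% and 23.1%, and over all 32851 promoters 13.3%, 8.86% and 20.9%. A match is a description of letters and not a bound site. The sequences below show where the letters lie, in capitals, for the 4 leading genes that had a match and for the vessel genes *Egfl7* and *Cd34*. They run 5′ to 3′ on the strand of the gene, so CTTCCTG and CTTCCGG are the same motifs on the other strand. The windows are chr7:18884440-18884739 (plus) for *Pglyrp1*, chr13:60936517-60936816 (minus) for *Ctla2a*, chrX:107403311-107403610 (minus) for *Itm2a*, chr11:84957504-84957803 (plus) for *Car4*, chr2:26580833-26581132 (plus) for *Egfl7* and chr1:194938571-194938870 (plus) for *Cd34*.
Pglyrp1: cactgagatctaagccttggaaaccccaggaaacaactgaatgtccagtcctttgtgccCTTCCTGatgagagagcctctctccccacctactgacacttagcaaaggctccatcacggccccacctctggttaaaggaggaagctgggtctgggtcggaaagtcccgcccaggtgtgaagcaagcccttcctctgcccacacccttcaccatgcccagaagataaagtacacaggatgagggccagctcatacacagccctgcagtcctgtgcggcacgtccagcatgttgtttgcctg
Ctla2a: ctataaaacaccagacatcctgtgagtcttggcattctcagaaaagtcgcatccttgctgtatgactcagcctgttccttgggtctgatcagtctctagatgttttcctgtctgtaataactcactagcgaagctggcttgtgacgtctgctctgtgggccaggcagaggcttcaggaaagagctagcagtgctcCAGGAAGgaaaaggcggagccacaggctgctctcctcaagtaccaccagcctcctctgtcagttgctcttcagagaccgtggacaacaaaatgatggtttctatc
Itm2a: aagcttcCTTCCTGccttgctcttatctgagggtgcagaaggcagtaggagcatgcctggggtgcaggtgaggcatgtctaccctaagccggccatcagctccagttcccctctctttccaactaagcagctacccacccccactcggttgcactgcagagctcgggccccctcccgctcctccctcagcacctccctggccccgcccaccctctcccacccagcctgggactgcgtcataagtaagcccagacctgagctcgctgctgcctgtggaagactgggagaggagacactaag
Car4: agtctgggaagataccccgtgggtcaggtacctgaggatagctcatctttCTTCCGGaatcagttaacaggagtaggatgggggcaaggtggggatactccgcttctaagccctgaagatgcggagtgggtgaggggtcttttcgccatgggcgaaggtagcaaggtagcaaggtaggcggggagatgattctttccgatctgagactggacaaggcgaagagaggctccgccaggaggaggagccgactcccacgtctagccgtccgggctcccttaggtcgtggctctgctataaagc
Egfl7: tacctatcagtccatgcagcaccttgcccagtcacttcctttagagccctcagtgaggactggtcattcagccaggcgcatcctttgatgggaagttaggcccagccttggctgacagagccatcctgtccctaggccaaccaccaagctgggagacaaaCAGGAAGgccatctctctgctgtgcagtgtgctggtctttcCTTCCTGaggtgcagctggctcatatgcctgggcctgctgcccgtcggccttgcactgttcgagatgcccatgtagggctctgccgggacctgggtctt
Cd34: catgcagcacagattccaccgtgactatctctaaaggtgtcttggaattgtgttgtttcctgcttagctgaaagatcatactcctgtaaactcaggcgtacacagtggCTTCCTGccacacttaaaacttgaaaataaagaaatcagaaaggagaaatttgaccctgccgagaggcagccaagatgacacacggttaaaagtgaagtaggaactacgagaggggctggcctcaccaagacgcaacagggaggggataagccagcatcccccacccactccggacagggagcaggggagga
The window of *Egfl7*, which encodes a secreted factor of vessel walls, held 2 matches, and each of the other 5 held 1. Promoters with a match were also found for *Lsr* and *Emcn*.

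By UMIs alone, the endothelial cells were rich in general transcripts as well. *Malat1*, a nuclear noncoding RNA, led with 40372 CPM among untreated and 43861 CPM among 4OH-tamoxifen cells. Over both libraries together, though not in untreated cells alone, *Tmsb4x*, the gene of an actin-binding peptide, came next with 14019 and 12252 CPM. *Bsg*, which encodes basigin, the partner that brings lactate transporters to the membrane, had 14942 (14704 to 15183) and 9424 (9236 to 9614) CPM against 1239 and 693 CPM in all other cells. It was higher in untreated cells, at a ratio of 1.59 (1.55 to 1.63). The ferritin gene *Fth1* followed with 7908 and 9802 CPM. Of the 10 genes with the most UMIs outside the mitochondrial and ribosomal genes, 3 were higher in all other cells than in endothelial cells of both libraries, namely *Malat1*, *Mbp* and *Cst3*. *Actb*, *Sparc*, *Tmsb10* and *Cldn5* completed the 10.

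Pericytes share the vessel wall with endothelial cells, and 74 untreated and 76 4OH-tamoxifen cells met the mirrored rule for them, with median depths of 2330.5 and 1749 UMIs. They held only 193782 and 144490 UMIs in all. Pericyte levels, given without intervals, are thus less certain than endothelial levels, and 0 UMIs in pericytes is a weaker limit. Fibroblasts, 5 and 11, were too few to compare. *Kdr* had 0 UMIs in pericytes of both libraries, as did *Adgrl4*, a receptor of the adhesion family, and *Hmcn1*, which encodes a large matrix protein. *Hmcn1* was at 388 (350.0 to 428) and 384 (347 to 424) CPM in endothelial cells. The 10 genes with the largest ratio toward endothelial cells were, beside the rule genes *Ly6c1* and *Cldn5*, *Kdr*, *Ctla2a*, *Itm2a*, *Pglyrp1*, *Vwa1*, *Adgrl4*, *Cd93* and *Hmcn1*. Toward pericytes, beside the genes the rules used, stood *Higd1b* with 2895 and 2097 CPM in pericytes and 43.8 and 64.0 CPM in endothelial cells, *Myl9*, a myosin light chain gene, with 2178 and 1322 CPM against 45.8 and 57.1 CPM, and *Cd248*, *Atp13a5*, *Cox4i2*, *Ndufa4l2* and *Abcc9*. Not every gene of the endothelial list set the pair apart. *Igfbp7*, a secreted vessel protein gene, was at 3835 and 2666 CPM in endothelial cells and 3679 and 2346 CPM in pericytes. *Car4* was at 987 and 718 CPM in endothelial cells and 248 and 215 CPM in pericytes.

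Transporters of the blood-brain barrier came next, all 24 of them with UMIs in both libraries. Of these, 17 of 23 tested were called at 4 times the level of all other cells, against 7.01% of all genes. *Slc2a1*, the glucose carrier GLUT1, was at 672 (623 to 725) CPM among untreated and 684 (634 to 736) CPM among 4OH-tamoxifen cells, a ratio of 0.984, and was seen in 60.6% and 60.5% of thinned endothelial cells and 2.69% and 2.10% of thinned microglia. *Slc16a1*, the monocarboxylate carrier for lactate and ketone bodies, was at 1424 (1351 to 1499) and 939 (880.2 to 1000.4) CPM, a ratio of 1.52 (1.40 to 1.65). Glucose carrier levels thus overlapped between the libraries while lactate carrier levels did not. The chains of the carrier for large neutral amino acids, *Slc7a5* and *Slc3a2*, were at 1165 and 1128 CPM and 687 and 491 CPM, and *Slc7a1*, for cationic amino acids, at 838 and 805 CPM. Iron entry was represented by the transferrin receptor *Tfrc* at 1126 (1061 to 1193) and 790.1 (736 to 847) CPM and its exit by ferroportin, *Slc40a1*, at 463 (422 to 507) and 325 (291 to 362) CPM. Both were higher in untreated cells, at ratios of 1.42 (1.30 to 1.56) and 1.42 (1.23 to 1.65).

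Efflux pumps and lipid carriers were present as well. *Abcb1a*, the pump P-glycoprotein, was at 284 (252 to 319) and 272 (241 to 306) CPM with 0 UMIs in pericytes, and *Abcg2*, the breast cancer resistance protein, with 227 and 203 UMIs. Neither differed between libraries beyond counting error, with ratios of 1.04 (0.882 to 1.24) and 1.13 (0.932 to 1.37). *Slco1c1*, a carrier of thyroid hormone, was at 913 and 805 CPM. *Mfsd2a*, which brings in lysophospholipids with docosahexaenoic acid and holds back vesicle traffic, was at 641 (592 to 692) and 520.1 (477 to 566) CPM, but other cells also had 142 and 125 CPM, and with 10 CPM added it missed the 4-fold mark, at 3.93. Among the tested members, those furthest below were the glutamine carrier *Slc38a3*, at 2.30, and *Slc3a2*, at 3.31, which serve many cell types. For the list as a whole, 9 of 23 compared genes had an interval above 1 and 0 below, the median log2 ratio was 0.17 and the sums were 12454 and 10492 CPM.

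Of the junction genes beside *Cldn5*, 6 of 13 tested were at 4 times the level of other cells or more. *Ocln*, the gene of occludin, was at 143 (121 to 169) and 113 (93.5 to 136) CPM against 7.49 and 5.31 CPM elsewhere, and *Lsr*, the angulin of corners where 3 cells meet, at 406 (368 to 448) and 305 (272 to 341) CPM with 0 UMIs in pericytes. The scaffold gene *Tjp1* was at 301 and 336 CPM, against 73.1 and 67.4 CPM in all other cells, a ratio of 3.74 with 10 CPM added. The other claudins of the list were scarce, with 16 and 3 UMIs of *Cldn12* and 2 and 0 of *Cldn3*. The junction gene *Marveld3* had 0 in both libraries. Adhesion molecules were led by *Esam* at 832 and 630.5 CPM, with *Jam2* at 184 and 166 CPM and *F11r* at 159 and 100.5 CPM. Of the connexins, *Gja4* was at 145 and 105 CPM, below its 325 and 208 CPM in pericytes, *Gja1* at 183 and 184 CPM, below all other cells at 371 and 304 CPM, and *Gja5* had 3 and 0 UMIs. Of 13 compared, 5 had an interval above 1 and 0 below, at a median log2 ratio of 0.16 and sums of 3513 and 3014 CPM.

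Caveolae are membrane pits that carry cargo across endothelium, and fenestrae are pores of leaky vessels. *Plvap*, the gene of the diaphragm protein of both and absent from mature barrier vessels, had 2 and 3 UMIs. After thinning it was seen in 0.452% and 0.334% of endothelial cells and 0.299% and 0.484% of microglia, so the shares were alike. *Cav1*, which builds caveolae, was at 207 (180.0 to 237) and 166 (141 to 193) CPM, and the coat genes *Ptrf* and *Sdpr* at 162 and 185 CPM and 93.6 and 102 CPM. *Cav2*, the partner of *Cav1*, was at 191 (165 to 220.3) CPM among untreated and 78.8 (62.5 to 98.1) CPM among 4OH-tamoxifen cells. Its ratio of 2.43 (1.86 to 3.19) was the only value past 2-fold among the 7 compared genes, and after thinning it was seen in 22.6% and 9.70% of cells. All other cells had 35.3 and 22.2 CPM of it. In this list 3 of 9 tested genes were at 4 times or more, 4 of 7 compared had an interval above 1 and 0 below, the median log2 ratio was 0.30 and the sums were 1574 and 1284 CPM.

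Genes of the Wnt pathway that brain vessels use were mostly higher in endothelial than in all other cells, with 11 of 15 tested at 4 times or more. Among receptors, *Fzd6* was at 145 (123 to 171) and 132 (111 to 156) CPM and *Fzd4*, the receptor for norrin, at 58.8 (44.7 to 75.8) and 84.7 (67.8 to 105) CPM, and the co-receptor *Lrp6* at 66.7 and 70.9 CPM. *Adgra2*, needed with *Reck* for the response to Wnt7 ligands, was at 66.7 and 59.1 CPM, near its 51.6 and 48.4 CPM in pericytes, while *Reck* had 9 and 6 UMIs. *Fzd4* was higher in 4OH-tamoxifen cells, at a ratio of 0.694 (0.489 to 0.978), whereas *Tspan12*, which helps norrin signal through it, was higher in untreated cells, with 93.6 (75.7 to 115) and 60.1 (46.0 to 77.2) CPM. Of the transcription factors that act with beta-catenin, *Lef1* was at 194 (168 to 224) and 207 (179.8 to 237) CPM against 12.1 and 8.11 CPM elsewhere, and *Tcf7* at 74.7 and 59.1 CPM. Targets and feedback genes ranged from *Nkd1*, at 423 (384 to 466) and 436 (397 to 479) CPM, through *Notum*, at 93.6 and 68.0 CPM, and *Axin2*, at 30.9 and 30.5 CPM, to *Apcdd1* with 10 and 11 UMIs and *Rnf43* with 0. The forkhead genes of barrier vessels, *Foxq1* and *Foxf2*, were at 416 and 398 CPM and 180.3 and 172 CPM. Of 15 compared genes, 2 had an interval above 1 and 1 below, below the shares over all genes, at a median log2 ratio of 0.13 and sums of 2840 and 2661 CPM.

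Of the VEGF, angiopoietin and apelin systems, most receptors were endothelial, and UMIs of ligands ranged from few to the level of receptors. *Flt4*, the receptor for VEGF-C, was at 57.8 (43.9 to 74.7) and 63.0 (48.6 to 80.5) CPM, and the co-receptor *Nrp1* at 438 (398 to 481) and 372 (336 to 412) CPM. *Vegfa*, made mainly by the tissue around vessels, had 7 and 12 UMIs, *Pgf* 4 and 2 and *Angpt1*, a pericyte and glial ligand, 2 and 3. *Angpt2*, the endothelial antagonist at *Tek*, had 37 and 51 UMIs in 9.95% and 8.63% of cells, and *Ptprb*, the phosphatase that holds *Tek* in check, was at 469 and 520.1 CPM. The receptor and ligand of the apelin pair were both present, *Aplnr* at 283 (251 to 318) and 212 (184 to 242) CPM and *Apln* at 267 (236 to 301) and 195 (169 to 224) CPM. Both were higher in untreated cells, with ratios of 1.34 (1.11 to 1.60) and 1.37 (1.13 to 1.65), but the ratio of *Apln* was 1.08 (0.835 to 1.40) in cells without a UMI of any excluding gene. Across the list 9 of 11 tested were at 4 times or more, 4 of 12 compared had an interval above 1 and 1 below, the median log2 ratio was 0.02, and the sums were 3343 and 3109 CPM. *Esm1* was at 0 in both libraries.

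Notch genes showed a receptor pair, *Notch1* at 132 (111 to 157) and 156 (132 to 182) CPM and the endothelial *Notch4* at 86.7 (69.4 to 107) and 88.7 (71.3 to 109) CPM. The ligand *Dll4*, which restrains sprouting, was at 87.7 (70.3 to 108) and 48.3 (35.7 to 63.8) CPM and was higher in untreated cells, at 1.82 (1.27 to 2.63), the only gene of the list whose interval left 1. *Jag1* was at 80.7 and 62.1 CPM, beside 108 and 138 CPM in the much smaller pericyte pools. The target *Hes1* was at 381 and 401 CPM and *Hey1* at 98.6 and 111 CPM, while *Heyl*, at 6 and 8 UMIs, and *Hey2*, at 4 and 0, were near the limit of detection. Of 9 tested genes, 3 were at 4 times or more, against 7.01% of all genes. Among 8 compared genes 1 interval lay above 1 and 0 below, against 15.7% and 11.7%, the median log2 ratio was 0.09, and the list summed to 1134 and 1097 CPM.

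The TGF-beta and BMP receptors that keep vessels from malforming were well represented. *Eng*, the gene of endoglin, was at 644 (595 to 695) and 587 (541 to 636) CPM, *Acvrl1*, its partner ALK1, at 225 (197 to 256) and 157 (133 to 183) CPM, and *Tgfbr2* at 169 and 187 CPM. The BMP targets *Id1* and *Id3* were the most abundant of the list by UMIs, *Id1* at 1057 (994 to 1123) and 1145 (1079.8 to 1212) CPM and *Id3* at 965 and 899 CPM. With 10 CPM added, *Id1* was at 8.87 times the level of other cells, unlike *Id2*, at 0.440. *Smad9* had 3 and 3 UMIs and the ligand *Bmp6* 0. The pseudoreceptor *Bambi* was higher in untreated cells, at 180.3 (155 to 209) and 110.3 (90.8 to 133) CPM, as was the ligand *Tgfb1*, at 161 (137 to 188) and 97.5 (79.3 to 119) CPM. In all, 6 of 14 tested were at 4 times or more, 4 of 14 compared had an interval above 1 and 0 below, the median log2 ratio was 0.12, and the sums were 4678 and 4334 CPM.

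Ligands that speak to other cells of the vessel wall included *Pdgfb*, which recruits pericytes, at 159 (136 to 186) and 126 (105 to 149.9) CPM, intervals that overlapped. It was seen in 47.1% and 29.1% of cells before thinning, at the unequal depths given above. *Cxcl12*, a chemokine, was the most abundant by UMIs, at 1169.5 (1104 to 1238) and 1092 (1029 to 1159) CPM. *Edn1*, the gene of the vasoconstrictor endothelin, was at 117 (96.4 to 139.7) CPM among untreated and 208 (181 to 238) CPM among 4OH-tamoxifen cells, a ratio of 0.561 (0.443 to 0.706). It was seen in 24.9% and 37.4% of cells, in 12.7% and 23.1% after thinning, and in 1.49% and 0.968% of thinned microglia. Its share was thus higher in the 4OH-tamoxifen library before and after thinning, and the cause was not tested. In all other cells it was at 7.87 and 9.53 CPM. *Sema3c*, a guidance factor, was at 133 and 118 CPM, the growth factor gene *Igf1* had 2 and 4 UMIs and the cytokine gene *Lif* 0 in both libraries. In this list 5 of 9 tested were at 4 times or more, 2 of 9 compared had an interval above 1 and 1 below, the median log2 ratio was 0.18 and the sums were 2417 and 2271 CPM.

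The basement membrane that endothelial cells share with pericytes was represented by *Col4a1* at 453 (413 to 497) and 556 (511 to 603) CPM and *Col4a2* at 773 (719.6 to 829) and 770.4 (717 to 826) CPM, the chains of collagen IV. Both were higher in pericytes, at 1213 and 1377 CPM and 1084 and 1239 CPM. Laminin genes *Lama4* and *Lamc1* were at 227 and 159 CPM and 171 and 139 CPM, and again higher in pericytes, while fibronectin, *Fn1*, was the reverse, at 770.0 (717 to 826) and 808 (753 to 865) CPM against 51.6 and 83.1 CPM in pericytes. *Sparc*, a matrix regulator, had 4440.0 and 3723 CPM, near its microglial levels of 4519.6 and 3136 CPM, and *Spock2*, a proteoglycan gene, 1512 and 1575 CPM. *Col15a1* was at 0. *Col4a1* was higher in 4OH-tamoxifen cells, at 0.816 (0.719 to 0.925), and *Hspg2*, the gene of perlecan, in untreated cells, at 1.32. Of the tested genes 8 of 14 were at 4 times or more, 5 of 13 compared had an interval above 1 and 1 below, the median log2 ratio was 0.25 and the sums were 10418 and 9557 CPM.

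Several genes of leukocyte adhesion had few UMIs, unlike *Icam2* above. *Sele* and *Selp*, the selectins of inflamed vessels, had 0 UMIs in both libraries, *Vcam1* 16 and 23, *Icam1* 31 and 33, and *Ackr1* 9 and 4. Antigen presentation was represented by *B2m* at 589 (542 to 638) and 525 (481 to 572) CPM, below the 2963 and 2279 CPM of microglia, and *H2-D1* at 297 (264 to 333) and 219.7 (192 to 250.5) CPM, with *H2-K1* at 71.7 and 69.9 CPM, though reads of these near copies may be split uncertainly. *Cd74*, of the class II pathway, had 2 and 0 UMIs. *Ly6e* and *Ly6a*, surface genes that respond to interferon, were at 1026 and 892 CPM and 531 and 389 CPM, and the antiviral gene *Ifitm3* at 398 and 338 CPM, under its 872 and 568 CPM in pericytes. Of 10 tested, 4 were at 4 times or more. An interval above 1 was found for 7 of 9 compared genes and below 1 for 0, against 15.7% and 11.7% of all genes, and the median log2 ratio was 0.43, with sums of 3609 and 2923 CPM. All other cells of the untreated library were also higher for *B2m*, at 447 against 244 CPM, and for *H2-D1*, at 84.0 against 50.1 CPM.

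Vascular tone genes included *Nos3*, the endothelial nitric oxide synthase, at 148 (126 to 174) and 142 (119.6 to 167) CPM, seen in 21.3% and 18.4% of thinned cells, and *Ptgis*, which makes prostacyclin, at 86.7 and 71.9 CPM. The factors that flow induces, *Klf2* and *Klf4*, were at 1341 (1270.2 to 1414) and 1225 (1157 to 1295) CPM and 321 (287 to 358) and 322 (288 to 359) CPM, and the stretch channel *Piezo1* at 46.8 and 51.2 CPM. Neither *Klf4* nor *Nos3* differed beyond counting error, with ratios of 0.996 (0.851 to 1.16) and 1.05 (0.827 to 1.32). *Kcnj2*, the potassium channel of capillary signaling, had 22 and 8 UMIs, *Kcnn3* 0 and 1, *Trpv4* 1 and 3, and *Kcnn4*, *Agtr1a* and *Bdkrb2* 0. Here 5 of 8 tested were at 4 times or more, 1 of 8 compared had an interval above 1 (*Klf2*) and 1 below (*Edn1*), the median log2 ratio was -0.07, and the sums were 2360 and 2351 CPM.

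Proton sensing and bicarbonate genes were read because the region responds to carbon dioxide. *Gpr4*, a receptor that couples protons to cyclic AMP, was at 117 (96.4 to 139.7) and 101 (82.8 to 123) CPM against 9.12 and 5.99 CPM elsewhere, and was seen in 37.1% and 26.8% of endothelial cells and 0.597% and 0.160% of microglia, at the median depths given above. *Gpr65* and *Gpr132*, of the same receptor family, were at 0. *Car4* was at 987 (927 to 1051) and 718 (667 to 772) CPM, while the bicarbonate carrier *Slc4a4* was at 95.6 and 143 CPM, below all other cells at 249.9 and 273 CPM. Of 20 genes, 5 were tested and 3 of these were at 4 times or more (*Gpr4*, *Car4* and *Slc9a3r2*). Of 5 compared, 1 had an interval above 1 and 1 below, at a median log2 ratio of 0.15 and sums of 1990 and 1737 CPM.

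Position along the vessel was read by anchor genes, and the groups so made are ranges of a UMI sum and not types. Arterial and venous cells below are names for cells with these calls alone. A cell was called arterial with at least 2 UMIs of *Bmx*, *Gkn3*, *Sema3g* and *Efnb2* and more of these than of the venous anchors, and venous with at least 2 UMIs of *Nr2f2*, *Slc38a5* and *Ackr1* and more of these than of the arterial anchors. Arterial cells numbered 15 of 221 untreated (6.79%, 3.85 to 10.9) and 19 of 313 4OH-tamoxifen cells (6.07%, 3.69 to 9.32). Venous cells numbered 99 (44.8%, 38.1 to 51.6) and 78 (24.9%, 20.2 to 30.1), and 107 and 216 cells had neither call. The arterial shares overlapped, and the venous share was higher in the untreated, deeper library. Called cells were deeper than the others, with median depths of 4604 and 2968 UMIs for arterial, 4688 and 3871.5 for venous and 2813 and 2426 for cells with neither. After thinning to 1500 UMIs, 12.3% of cells were venous in place of 33.1% over both libraries, and 3.65% arterial in place of 6.37%. Many cells lay at the threshold. Exactly 2 UMIs were held by 8 and 10 of the arterial and 37 and 33 of the venous cells, and exactly 1 UMI by 29 and 36 cells for the arterial and 47 and 78 for the venous anchors. The venous sum came mostly from *Slc38a5*, with 396 of 464 UMIs in untreated and 270 of 355 in 4OH-tamoxifen cells. This gene is also on the transporter list and was seen in 63.8% and 42.5% of all endothelial cells. All 32 UMIs of *Gkn3* in the 4OH-tamoxifen library lay in 5 cells.

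The genes of the arterial list that were not anchors followed the calls. With both libraries pooled and 10 UMIs required, 15 of 16 were higher in arterial than in venous cells and 12 had an interval above 1, against 491 of 8741 genes (5.62%), with a median ratio of 6.24. In each library 15 of 16 were higher, with an interval above 1 for 13 in untreated and 14 in 4OH-tamoxifen cells. Against cells with neither call the counts were 16 of 18 higher and 12 with an interval above 1, beside 443 of 8922 genes (4.97%), and the median was 2.98. Genes of elastic fibers and matrix were among those with large pooled ratios. *Fbln5*, which assembles elastin, was at 418 CPM in arterial and 5.31 CPM in venous cells, a ratio of 78.6 (31.7 to 252), *Fbln2* at 342 and 8.50 CPM, and *Eln*, elastin itself, at 258 and 4.25 CPM, with a ratio of 209 in the untreated and 15.1 in the other library. These UMIs sat in few cells. For *Eln*, 24 of 28 UMIs in untreated endothelial cells came from 1 cell, and for *Fbln5* 38 of 48 in untreated and 18 of 20 in 4OH-tamoxifen cells lay in 5 cells, 19 and 11 of them in 1. Signaling genes were also higher in arterial cells. *Vegfc* was at 189.8 and 9.56 CPM, with a ratio of 38.6 in the untreated and 6.46 in the other library, *Gja4*, a connexin of arterial endothelium, at 463 and 73.3 CPM, *Jag1* at 334 and 54.2 CPM and the netrin receptor gene *Unc5b* at 418 and 53.1 CPM. The Notch target *Hey1* was at 220.1 and 69.0 CPM and *Sox17*, which acts upstream of Notch in arteries, at 349 and 156 CPM. For *Dll4* the interval of the ratio, 1.89 (0.967 to 3.45), covered 1.

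Genes outside the arterial list also went with the call. *Epas1*, the hypoxia factor HIF-2 alpha, was at 1275 CPM in arterial and 559 CPM in venous cells, the taurine carrier *Slc6a6* at 1564 and 815 CPM and *Cxcl12* at 2080.0 and 656 CPM. *Igfbp3*, which binds insulin-like growth factors, was at 304 and 8.50 CPM, and *Col18a1*, the source of endostatin, at 273 and 18.1 CPM. Of the genes on no list that led this contrast, *Tmem100* was at 303.6 and 17.0 CPM (461 and 18.1 in untreated, 116 and 15.5 in 4OH-tamoxifen cells) and the macrophage gene *Lyz2* at 106 and 2.12 CPM, from 14 and 2 UMIs, with 0 in the arterial cells of the untreated library. *Pf4*, another macrophage gene, was at 83.5 CPM in arterial cells and 6.34 CPM in cells with neither call, from 11 and 6 UMIs. By library it was at 27.9 and 0 CPM in untreated and 150 and 10.6 CPM in 4OH-tamoxifen cells. All untreated endothelial cells together held 3 UMIs of *Pf4*. These 3 genes were chosen after their values were seen. In the other direction, *Aplnr* was at 45.5 CPM in arterial and 328 CPM in venous cells, *Car4* at 228 and 1039 CPM, *Tfrc* at 409.9 and 1166 CPM and *Tmsb10*, the gene of an actin-binding peptide, at 2702 and 7149.9 CPM. Of the capillary list, 3 of 15 genes were higher in arterial than in venous cells, 1 with an interval above 1 and 7 below. Over all genes 49.6% were higher in arterial cells and 3.48% had an interval below 1.

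Held-out venous genes were read in the same way. Against cells with neither call, 11 of 14 were higher in venous cells, 6 with an interval above 1, beside 515 of 10276 genes (5.01%), and the median ratio was 1.32. By library, 7 of 12 were higher in untreated and 9 of 12 in 4OH-tamoxifen cells, 4 with an interval above 1 in each, at medians of 1.19 and 1.31. Over all genes, 51.1% were higher in venous cells with both libraries pooled. The pools mix the libraries unequally, with 553496 untreated and 388060 4OH-tamoxifen UMIs in venous cells and 378713 and 566930 in cells with neither call. Pooled ratios can thus carry a difference between the libraries. Pooled, *Flrt2*, an adhesion gene, was at 64.8 CPM in venous cells and 23.3 CPM in cells with neither call, *Icam1* at 45.7 and 21.1 CPM and *Aplnr* at 328 and 195 CPM. By library, *Flrt2* was at 48.8 and 18.5 CPM in untreated and 87.6 and 26.5 CPM in 4OH-tamoxifen cells. *Vwf*, the gene of von Willebrand factor, did not differ, at 138 and 152 CPM, nor did *Ephb4*, the receptor for ephrin-B2, at 57.4 and 57.1 CPM. *Ifitm3*, from another list, was at 459 and 243 CPM. Between arterial and venous cells, 3 of 14 held-out venous genes were higher in arterial cells, 1 with an interval above 1 and 4 below, at a median arterial over venous ratio of 0.272 against 0.993 over all genes, with the shares of all genes given above. *Ccl21a*, a lymphatic marker chosen after its values were seen, also went with the venous call, with 35 UMIs in venous cells and 1 in cells with neither call, but nearly all of it in the untreated library, at 59.6 and 0 CPM against 5.15 and 1.76 CPM in the other.

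Over all endothelial cells of a library, the arterial list summed to 1603 CPM among untreated and 1600 CPM among 4OH-tamoxifen cells, with 5 of 11 tested genes at 4 times the level of other cells. Of 13 compared, 3 had an interval above 1 and 3 below, with *Mgp* past 2-fold in the untreated and *Stmn2*, a neuronal gene as well, in the 4OH-tamoxifen direction, and a median log2 ratio of 0.27. *Mgp*, an inhibitor of calcification, was at 68.7 (53.5 to 87.0) and 33.5 (23.2 to 46.8) CPM, with 27 of its 69 UMIs in untreated cells from 1 cell and a ratio of 1.81 for the mean of the CPM of single cells and 3.25 (1.75 to 6.42) without any excluding UMI, and also at 2369 and 547 CPM in pericytes. *Stmn2* was at 70.7 (55.2 to 89.2) and 166 (141 to 193) CPM, below all other cells at 277 and 431 CPM. The venous list summed to 7338 and 7558 CPM, mostly *Tmsb10*, with 6 of 8 tested at 4 times or more, 5 of 8 compared with an interval above 1 and 1 below, 1 past 2-fold in untreated cells (*Ptgds*) and a median log2 ratio of 0.42. The capillary list summed to 10480 and 9144 CPM, with 10 of 14 tested at 4 times or more, 5 of 14 with an interval above 1 and 1 below and a median of 0.10. *Nostrin*, which controls nitric oxide synthase traffic, was the gene below 1, at 208 (181 to 238) and 256 (226 to 289) CPM.

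**Figure D2:**
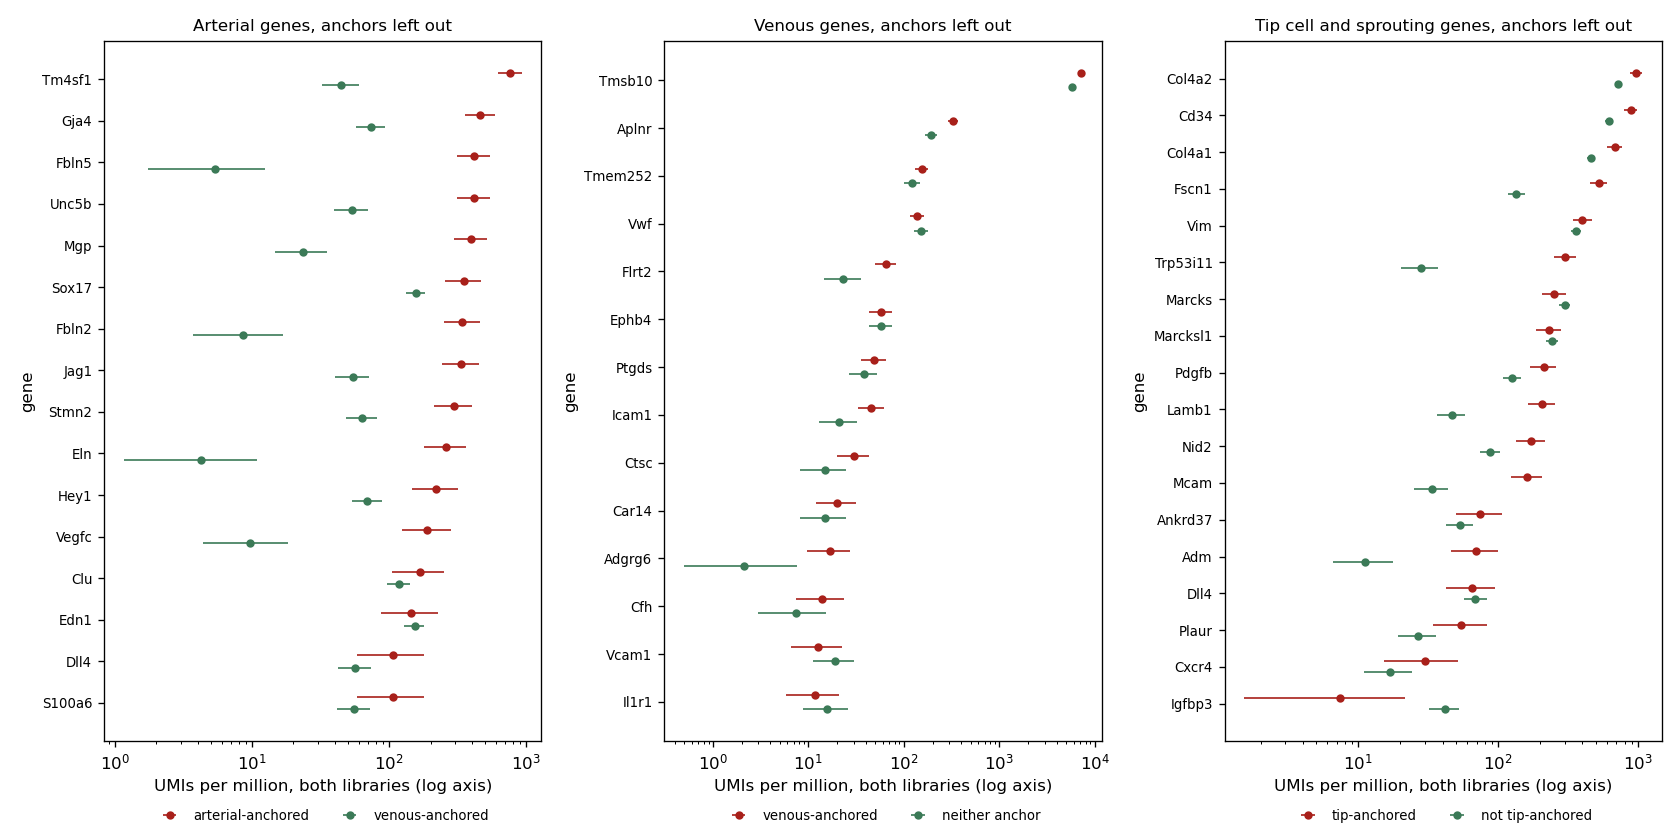
CPM (log axis) of genes not used as anchors, pooled over both libraries, in arterial-anchored against venous-anchored cells, venous-anchored against cells with neither anchor, and tip-anchored against other endothelial cells. Points are levels and lines exact Poisson 95% intervals. *Fbln5* stood at 418 CPM in arterial and 5.31 CPM in venous cells, and *Trp53i11* at 302 CPM in tip-anchored and 27.9 CPM in other cells.

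Tip-anchored cells had at least 2 UMIs of *Apln*, *Angpt2*, *Esm1* and *Kcne3* together, genes known from sprouting tip cells. The name stands for this call and not for a cell type. They numbered 46 of 221 untreated cells (20.8%) and 42 of 313 4OH-tamoxifen cells (13.4%), or 16.5% of both, and 15 and 17 of them had exactly 2 UMIs. Their median depths were 4352.5 and 3763.5 UMIs, above the other endothelial cells, and 24 and 15 also carried the venous call against 1 and 0 the arterial call. *Apln* made most of the sum, 268 and 198 UMIs, with *Angpt2* at 37 and 51, *Kcne3* at 1 and 0 and *Esm1* at 0 in both libraries. Of the held-out genes of the tip list, 14 of 18 were higher in tip-anchored cells, 11 with an interval above 1 and 1 below, against 626 (5.99%) and 551 (5.27%) of 10455 genes, at a median ratio of 1.58 over both libraries. *Trp53i11*, a target of p53, was higher in tip-anchored cells of both libraries, pooled at a ratio of 10.8 (7.65 to 15.6). *Fscn1*, which bundles actin in filopodia, was at 523 and 135 CPM, the laminin gene *Lamb1* at 206 and 46.4 CPM, the adhesion gene *Mcam* at 161 and 33.4 CPM and *Adm*, the gene of adrenomedullin, at 69.4 and 11.1 CPM. For *Mcam* the ratio was 8.27 in the untreated library and 1.98 in the other, where the interval covered 1. *Pdgfb* was at 211 and 126 CPM, and *Dll4*, known from tip cells, did not differ at 64.4 and 68.7 CPM. *Igfbp3* was the gene below 1, at 7.43 and 41.5 CPM, from 3 UMIs in tip-anchored cells of the untreated library and 0 in those of the other.

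Barrier transporters were divided in the same cells, with more genes lower than higher. Of 23 transporter genes, 6 were higher in tip-anchored cells, 3 with an interval above 1 and 9 below, against 5.99% and 5.27% of all genes. Their median ratio was 0.854 against 0.945 over all genes, of which 45.6% were higher. *Slc6a6* was at 265 CPM in tip-anchored and 961 CPM in other endothelial cells, *Slco1a4* at 198 and 557 CPM, *Slco1c1* at 579.7 and 928 CPM, *Abcb1a* at 171 and 305 CPM and *Slc2a1* at 508 and 721 CPM. By library, the ratio of *Slc6a6* was 0.124 in untreated and 0.490 in 4OH-tamoxifen cells. That of *Abcb1a* was 0.373 in untreated cells, and its difference was smaller in the other library. *Mfsd2a* was level, with a ratio of 1.00 (0.867 to 1.16). *Vwf*, in contrast, was at 289.9 and 111 CPM. Of 15 hypoxia genes, 4 were higher in tip-anchored cells, 2 with an interval above 1 and 4 below, at a median ratio of 0.766. Outside the lists, and chosen after their values were seen, *Apod*, a lipid carrier gene, was at 1187 and 232 CPM, *Cd82*, a tetraspanin, at 245 and 40.9 CPM and the homeobox gene *Meox1* at 299.8 and 66.2 CPM. Over all endothelial cells the tip list summed to 4319 and 3763 CPM, with 9 of 14 tested at 4 times or more, 9 of 16 compared with an interval above 1, 2 below and 1 past 2-fold (*Ankrd37*, in untreated cells), at a median log2 ratio of 0.38.

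Few cells reached the threshold for cell cycle genes, which at this depth limits no share of dividing cells. At least 3 UMIs of *Mki67*, *Top2a*, *Cdk1*, *Birc5*, *Ube2c* and *Cenpf* were held by 4 untreated cells (1.81%) and 10 4OH-tamoxifen cells (3.19%), or 2.62% of both, and 2 and 4 of these had exactly 3 UMIs. Their median depths were 11592.5 and 3390 UMIs. Of the held-out cell cycle genes, 13 of 13 were higher in these cells, 10 with an interval above 1, against 467 of 10455 genes (4.47%), at a median ratio of 5.20. *Hmgb2*, a chromatin protein gene of dividing cells, was at 894 CPM in them and 104 CPM in other endothelial cells, and *Cenpa*, the centromere histone, at 157 and 4.65 CPM. *Pdgfra*, a marker of fibroblasts and oligodendrocyte precursors singled out after its values were seen, was also higher in these cells, at 157 and 21.7 CPM. This rested on 13 UMIs in them, at 239 and 20.8 CPM in untreated and 73.4 and 22.6 CPM in 4OH-tamoxifen cells. Over all endothelial cells *Mki67* had 9 UMIs in each library and was below the 19.9 and 24.2 CPM of all other cells. The list summed to 1568 and 1534 CPM, with 0 of 3 tested genes at 4 times or more and 0 of 3 compared with an interval off 1, at a median log2 ratio of 0.03.

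Between the libraries, the endothelial profiles had a Pearson correlation of 0.956 across the compared genes, which share libraries and are not independent. The genes beyond 2-fold were few. Of the 19 higher in untreated cells, 5 had more CPM in all other cells than in endothelial cells, 18 lay in the same direction in all other cells, 8 of them also at 2-fold, and 5 reached 2-fold in microglia. Of the 37 higher in 4OH-tamoxifen cells, 34 had more CPM in all other cells, 34 lay in the same direction there, 3 at 2-fold, and 25 reached 2-fold in microglia. All other cells include cells with at least 6 UMIs of the rule genes that failed another limit. For endothelial genes their direction is thus not independent of that of the members. Of all 3466 compared genes, 38.5% in untreated and 39.0% in 4OH-tamoxifen cells had more CPM in all other cells than in endothelial cells. All other cells lay toward untreated for 59.6% of them, 1.73% at 2-fold, and toward 4OH-tamoxifen for 40.4%, 0.115% at 2-fold, and microglia reached 2-fold for 1.93% and 6.12%.

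On the untreated side, *Ptgds*, the gene of prostaglandin D synthase and known from the meninges, had the largest ratio, at 84.7 (67.6 to 105) CPM among untreated and 1.97 (0.239 to 7.12) CPM among 4OH-tamoxifen cells, or 43.0 (11.5 to 361). In cells without a UMI of any excluding gene it had 7 and 2 UMIs and a ratio of 3.54, whose interval covered 1. Of its 85 UMIs 77 lay in 5 cells, and all other cells had 262 and 20.3 CPM. *Ankrd37*, a target of hypoxia factors, was at 88.7 (71.2 to 109) and 26.6 (17.5 to 38.7) CPM, with at most 6 UMIs in a cell. It was seen in 24.0% and 7.67% of endothelial cells, in 11.3% and 3.68% after thinning, and in 0.299% and 0.484% of thinned microglia. Its level in all other cells, which include some with endothelial RNA, was 11.3 and 6.54 CPM, in the same direction. Microglia had 3.54 and 4.19 CPM of *Ankrd37*, from 5 and 7 UMIs. *Pcp4l1*, a calmodulin regulator gene, was at 219 (191 to 250.1) and 94.6 (76.6 to 115) CPM against 20.5 and 20.9 CPM in all other cells, and at 201 and 34.6 CPM in pericytes, where it lay the same way. *Cav2* and *Pcp4l1* were higher in endothelial than in all other cells but missed the 4-fold mark with 10 CPM added, at 2.76 and 3.38. *Ctsw*, a cathepsin gene, was at 77.7 and 34.5 CPM against 3.87 and 1.80 CPM. *Cd9*, a tetraspanin, was at 213 and 84.7 CPM, but higher in all other cells at 890.2 and 449 CPM, and 86 of its 214 UMIs in untreated cells lay in 5 cells. *Fos*, *Slc46a3*, *Tmem115*, *Lyl1*, *Twf2* and *Vrk3* made up the 12 genes with the largest ratios, from 2.24 to 3.31.

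On the 4OH-tamoxifen side, the genes with the largest ratios, *Snhg11* and *Meg3*, had most of their UMIs in 1 cell each. *Snhg11*, a gene known from neurons, was at 25.9 (16.9 to 38.0) CPM among untreated and 151 (128 to 177) CPM among 4OH-tamoxifen cells, and 103 of its 153 UMIs there came from 1 cell. *Meg3*, a maternally expressed noncoding RNA, was at 91.6 (73.9 to 112) and 508 (465 to 554) CPM, with 292 of 516 UMIs from 1 cell, against 2134 and 2809 CPM in all other cells. Scrublet, a program that scores doublets, marked 26 of the 313 4OH-tamoxifen members (8.31%) and 0 of the untreated members, and 6 and 544 barcodes in all, at thresholds of 0.512 and 0.179. These thresholds were set from each library alone, so the numbers marked cannot be compared between the libraries, and leaving marked members out removed cells from 1 library only. Without these 26 cells the ratio of *Snhg11* was 0.522 in place of 0.172 and of *Meg3* 0.410 in place of 0.180. That of *Gria2*, a glutamate receptor gene, was 0.524 in place of 0.283 and of *Trim9* 0.475 in place of 0.303. The noncoding *Gm3764* had 0.723 (0.483 to 1.08) in place of 0.368, with an interval that covered 1. In the 26 cells astrocyte markers summed to 4815 CPM and neuron markers to 395 CPM, against 1419 and 178 CPM in the other 4OH-tamoxifen members, and endothelial markers to 5627 against 10101 CPM. Of the 37 genes, 21 were still past 2-fold without these cells, and of the 19 genes on the other side all 19.

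The neurofilament genes were spread over more cells. *Nefh* was at 35.9 (25.1 to 49.6) and 141 (119 to 166) CPM, with 8 of 143 UMIs in the 26 marked cells and a ratio of 0.246 without them, and *Nefm* at 72.7 and 192 CPM, with 30 of 195 UMIs in them and 0.408 without. *Nefh* was also higher in 4OH-tamoxifen cells that were not members, at 81.0 and 248 CPM in all others and 70.7 and 175 CPM in microglia, and *Nefm* at 128 and 409 CPM and 84.2 and 251 CPM. These are genes of axons, and their levels in endothelial cells were below those in all other cells of the same library. *Prph*, *Rab6b*, *Camk2n2* and the microglial adaptor gene *Tyrobp* also belonged to the 12, all with more CPM in all other cells. In 4OH-tamoxifen endothelial cells the 57 UMIs of *Camk2n2* lay in 55 cells. *Per1*, a clock gene, was the only gene of the 12 with more CPM in endothelial than in all other cells.

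**Figure D3:**
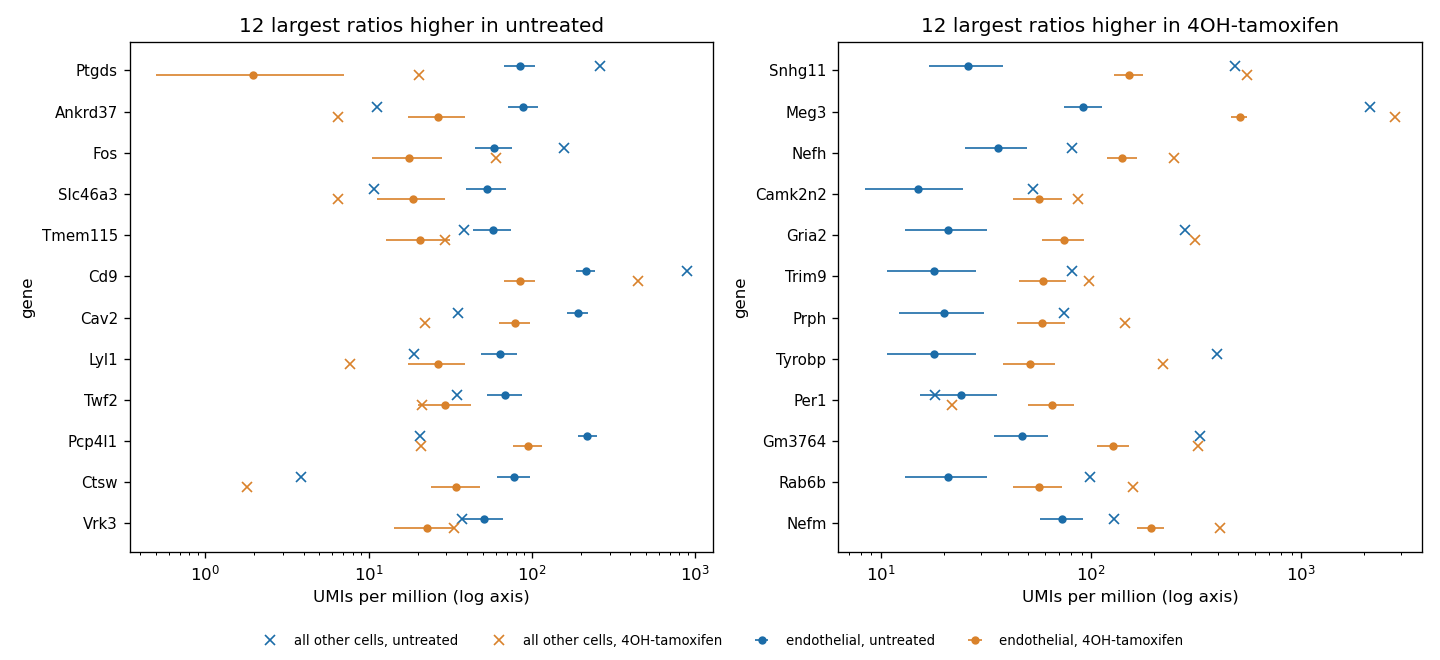
CPM (log axis) of the 12 genes with the largest ratio in each direction between the libraries, in endothelial cells (points, with exact Poisson 95% intervals) and in all other filtered cells (crosses). *Ptgds* stood at 84.7 CPM among untreated and 1.97 CPM among 4OH-tamoxifen endothelial cells, and *Meg3* at 91.6 and 508 CPM, below its level in all other cells.

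Genes that respond to glucocorticoids and other steroids lay toward 4OH-tamoxifen, with 6 of 9 compared genes at an interval below 1 against 11.7% of all genes, 0 above 1, 3 past 2-fold against 1.07%, and a median log2 ratio of -0.43. *Mt1* and *Mt2*, the metallothionein genes, were at 761 (708 to 817) and 1813 (1731 to 1897) CPM and 228 (199.5 to 259.7) and 539 (495 to 586) CPM, ratios of 0.420 (0.385 to 0.457) and 0.423 (0.361 to 0.495). After thinning, *Mt2* was seen in 29.9% and 50.2% of endothelial cells and in 26.3% and 54.7% of microglia, so the difference was not particular to endothelium, and all other cells had 1517 and 2506 CPM of *Mt1*. *Per1*, which entered the comparison by its level in the 4OH-tamoxifen library alone, was at 23.9 (15.3 to 35.6) and 65.0 (50.3 to 82.7) CPM, with 18.0 and 21.7 CPM in all other cells, and *Cdkn1a*, a brake of the cell cycle, at 272 (241 to 306) and 367 (331 to 407) CPM. *Fkbp5*, a standard glucocorticoid target, had 3 and 4 UMIs, *Tsc22d3* was at 283 and 245 CPM and *Sgk1* at 208 and 212 CPM, and the intervals of the latter pair covered 1. The estrogen receptors that bind 4OH-tamoxifen were scarce, with 1 and 2 UMIs of *Esr1* and 0 of *Esr2*. The list summed to 2087 and 3646 CPM, and 1 of 8 tested genes was at 4 times the level of other cells.

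Immediate early genes, which cell dissociation can also induce, lay toward the untreated library, with 9 of 15 compared genes at an interval above 1 and 1 below, against 15.7% and 11.7% of all genes, 2 past 2-fold in untreated cells against 0.548% and 0 in the other direction, and a median log2 ratio of 0.50. *Jun* was at 413 (375 to 455) and 218 (190.0 to 248) CPM, *Junb* at 227 (199 to 259) and 108 (89.1 to 131) CPM and *Fos* at 58.8 (44.7 to 75.8) and 17.7 (10.5 to 28.0) CPM. Microglia had more of each and lay the same way, with 796 and 432 CPM of *Fos*. After thinning, *Jun* was seen in 44.8% and 26.4% of endothelial cells and 73.7% and 53.5% of microglia. *Klf6* was the gene below 1, at 187 (161 to 216) and 231 (202 to 262) CPM. The list summed to 5073 and 4088 CPM, and 4 of 13 tested genes, *Dusp1*, *Klf2*, *Klf4* and *Cyr61*, were at 4 times the level of other cells.

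Hypoxia genes showed no common direction, with 3 of 8 compared genes above 1, 3 below, 1 past 2-fold in untreated cells (*Ankrd37*) and a median log2 ratio of 0.02. *Ldha*, lactate dehydrogenase, was at 368 (331 to 407) and 208 (181 to 238) CPM, and *Epas1* and *Hif1a*, the oxygen-regulated factors, were at 559.9 (515 to 608) and 639 (591 to 690.5) CPM and 72.7 and 101 CPM, both higher in 4OH-tamoxifen cells. *Ldha* was higher in all other untreated cells too, at 143 against 91.3 CPM. The sums were 2585 and 2432 CPM, and 3 of 9 tested genes, *Slc2a1*, *Epas1* and *Apln*, were at 4 times the level of other cells.

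**Figure D4:**
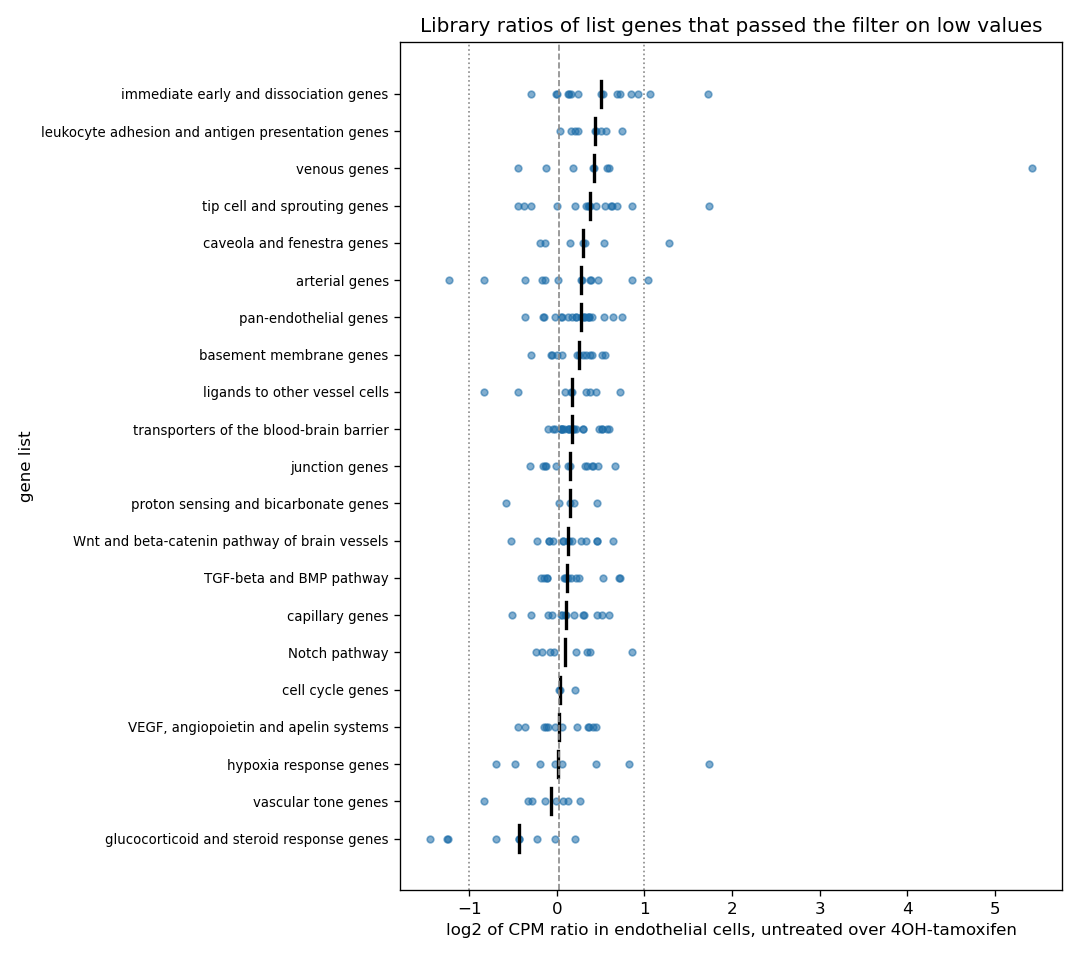
Log2 ratio of untreated over 4OH-tamoxifen CPM in endothelial cells for the compared genes of each list (points), with the median of each list. The median ran from -0.43 for the glucocorticoid and steroid response genes to 0.50 for the immediate early and dissociation genes, against 0.03 over all 3466 compared genes.

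Of the 349 distinct genes on the lists, 20 had 0 UMIs in the endothelial cells of both libraries. These were *Esm1*, *Marveld3*, *Rnf43*, *Bmp6*, *Lif*, *Cytl1*, *Selp*, *Sele*, *Col15a1*, *Kcnn4*, *Agtr1a*, *Bdkrb2*, *Gpr65*, *Gpr132*, *Kcnk5*, *Car13*, *Esr2*, *Greb1*, *Car9* and *Hspa1b*. The limit of 2.99 and 2.96 CPM applies to each of them, so low expression was not detectable at this depth.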

How the data were processed

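Single-cell RNA was measured in 2 libraries of the mouse ventral parafacial region, 1 per condition. The authors, per their processing notes, used bcl2fastq 2.18.0.12 and Cell Ranger 2.2.0, and deposited UMI counts per gene and barcode, 18496942 UMIs in 3767 barcodes and 34704167 in 10241. From these counts the filters and member rule given in the report were applied, UMIs were summed over the cells of each library and divided by their total (CPM), and exact intervals were computed. At the depth of the endothelial cells a gene at 50 CPM had about 50 UMIs in a library. Members and lists were chosen with earlier results of these data known.

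Named genes were chosen by a rule: the genes of the lists; the 12 largest CPM ratios in each direction between the libraries, where the larger CPM was 50 or more and the UMIs over both libraries 20 or more; the 25 largest ratios of CPM plus 10 over all other filtered cells by the lower library, with a UMI in at least 10% of cells of each library and rule genes left out; the 10 genes with the most UMIs that were neither mitochondrial nor ribosomal; and the 10 largest ratios each way against pericytes. The 21 lists were pan-endothelial, transporters, junctions, Wnt, VEGF and apelin, Notch, TGF-beta, ligands, arterial, venous, capillary, tip, cell cycle, caveola, basement membrane, adhesion and antigen presentation, tone, proton and bicarbonate, glucocorticoid and steroid, hypoxia, and immediate early genes. Pericytes and microglia were chosen by mirrored rules.

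Shares were repeated after each cell was thinned at random to 1500 UMIs, doublets were scored with Scrublet, and the steps were tested on simulated data. Alternatives changed the filters, the member rule, the level for comparison, the unit of averaging and the anchor thresholds. No test between conditions was made, since each had 1 library, and cells are not replicates. Python 3.11.15 was used with numpy 2.4.6, scipy 1.17.1, pandas 2.3.3, scanpy 1.11.5 and matplotlib 3.10.9. Positions came from GENCODE M21 and promoters from RefSeq.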

Additional observations from a re-analysis of the deposited data

How the results depend on the processing

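Of 96 values under alternative settings, 65 stayed within the counting interval of the reported value, or within 1.5 times a reported count, and 31 moved. The setting without any excluding UMI changed the pericyte, microglial and oligodendrocyte limits together, and the setting with no filter on level removed the CPM and UMI minimums together and asked for 1 UMI in each library. Thinning also left out the shallower cells, and the anchor thresholds moved with that of the cycling genes.

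The endothelial share of 6.61% in untreated cells was 8.56% with at most 10% mitochondrial UMIs and 3.98% when a single UMI of an excluding gene removed a cell. The share of 3.46% in 4OH-tamoxifen cells was 4.63% and 1.94% under the same settings and 2.98% with at least 10 endothelial UMIs. The share was higher in untreated cells under each of these settings for which both values are given. Without any excluding UMI, 309 cells were left in place of 534. The cause of the moved shares was not tested.

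The count of 19 genes beyond 2-fold in untreated cells was 29 with at least 1200 genes per cell, 62 without any excluding UMI, 106 at 20 CPM, 6 at 100 CPM, 33 for the mean of the CPM of single cells and 936 with no filter on level. The count of 37 in 4OH-tamoxifen cells was 60 without any excluding UMI, 220 at 20 CPM, 13 at 100 CPM, 58 for the mean over cells and 1094 with no filter. Fewer or more genes were compared under the level filters by construction, and the cause of the other differences was not tested. Without the doublets marked by Scrublet, 19 of 19, 21 of 37 and 297 of 297 genes beyond 2-fold or beyond 4 times the other cells were shared. With at least 1200 genes, 17, 30 and 291 were shared, and without any excluding UMI 14, 26 and 252. Without any excluding UMI, the ratios of *Ptgds* and *Apln* had intervals that covered 1, and that of *Lyl1* was 1.91 in place of 2.40. Adding 50 CPM in place of 10 gave 92 genes at 4 times or more in place of 297.

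The anchor groups followed their thresholds and the depth, as their construction implies. The arterial share of 6.37% was 10.9% at 1 UMI, 3.37% at 3 UMIs and 3.65% after thinning. The venous share of 33.1% was 52.1%, 20.2% and 12.3% under the same settings and 40.6% with at least 1200 genes. The tip share of 16.5% was 33.1%, 10.5% and 9.04%. The cycling share of 2.62% was 5.24% at 2 UMIs, 0.936% at 5 UMIs and 0.769% after thinning.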

Other observations

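With 1 pool of 8 mice per condition, no value between the libraries can be assigned to treatment, batch or litter, and the cause of each difference was not tested. The intervals carry counting error alone. Depth limits genes under about 3 UMIs per library and the calls of vessel position, many of which rest on 2 UMIs per cell. Fibroblasts were too few to compare, and lineage labels come from RNA alone, with no image of the vessels to place the cells along them.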
